A study of Mus musculus with 12 samples.

Results

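Aortas of high-fat-fed mice titled HAPN were compared with aortas of high-fat-fed mice titled HFD. The genes were those listed in the deposited tables that were measurable in these libraries. A gene was included when its FPKM (fragments per kilobase of transcript, scaled to the reads of the library) was at least 1 in at least 2 of the 5 distinct libraries. This held for 1562 of the 3534 gene symbols in the deposited tables, of which 1126 reached 1 FPKM in all 5 libraries. Of the members, 21 reached 1 FPKM in HFD libraries and in no HAPN library, and 52 in HAPN libraries and in no HFD library.

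Sequencing of aortic mRNA was deposited for 12 mouse samples, 3 in each of 4 groups. HFD and HAPN share the WT genotype and a diet with 60% of its calories from fat for 12 weeks. The labels name no agent, transgene or age that separates HAPN from HFD, and they do not expand either title. The other groups were WT on a standard diet and HSAPN, which had the same high-fat diet and an APPL1 knockdown. Both entered the fit only to estimate the spread, and their levels are given where they help to place a value. The files of HFD replicates 1 and 2 held identical values and were counted as 1 library, called HFD replicate 1 here, so HFD had 2 libraries and HAPN 3. Since no label states that replicates are different mice, p-values here measure only the spread between these samples, which may be technical.

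Inducible chaperones of the Hsp70 family refold damaged proteins, helped by J-domain cochaperones that deliver substrates and by nucleotide exchange factors of the Hsp110 type. Their genes are switched on by heat shock factor 1, which binds inverted repeats of the short unit GAA upstream of them. The aortic wall holds contractile smooth muscle, endothelium and an adventitia of fibroblasts, nerves and immune cells, and it is wrapped in fat, so a dissected piece can carry varied amounts of neighbouring tissue.

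The labelled tissue and the libraries were checked first. All 6 smooth muscle markers were present in every library, with a summed level of 714 and 198 FPKM in HFD replicates 1 and 3 and of 466, 350 and 235 FPKM in HAPN replicates 1 to 3. One of them, Tagln, which encodes the actin-binding protein transgelin, was below 1 FPKM in all 5, at 0.569 and 0.544 FPKM in HFD and 0.279, 0.367 and 0.449 FPKM in HAPN. The 6 endothelial markers were not among the gene symbols used here, so the check does not cover endothelium. HFD replicate 1 stood apart: it was the highest of the 5 libraries in 870 members (55.7%), and its median-ratio size factor was 1.38 against 0.89 to 0.96 in the other 4. The 6 fat cell markers summed to 1092 and 4.96 FPKM in HFD and to 52.5, 225 and 3.07 FPKM in HAPN, and Bpifa1, a secreted protein of airway epithelium, had 6438 and 5.84 FPKM in HFD libraries, with 840, 3848 and 2.81 FPKM in those of HAPN. Recovered reads came to 15610000 to 17831000 per library, of which the table holds 12.0 to 17.6%. All members are therefore drawn from a part of the transcripts, and shares over them refer to that part. In bulk tissue, fewer cells of a type and less RNA per cell cannot be told apart.

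Chaperone genes of the heat shock response stood higher in HAPN, with the inducible chaperone gene Hspa1b past the threshold, while Nnat, a proteolipid gene of nerve and fat cells, fell. Limma called 6 of 1562 members at a Benjamini-Hochberg adjusted p under 0.05 (0.384%). Of these, 2 were higher (0.128%) and 4 lower (0.256%). However, 4 of the 6 (Gm14202, Hist1h2bb, Igkv1-133 and Igkv12-89) passed the filter only through the group where they are high, so they had to differ, and their calls are given as descriptions. Among the 1126 genes at 1 FPKM or more in all 5 libraries only Hspa1b was called (limma adjusted p = 0.0346), and Nnat was at 0.0684. At an unadjusted p under 0.05 there were 145, of which 48 were higher and 97 lower. Groups did not overlap in 425 members (27.2%), 109 with HAPN higher (6.98%) and 316 with HAPN lower (20.2%), and among the 1126 genes these shares were 5.6% and 23.2%. The median log2 difference over all members was -0.24, with 395 higher and 1167 lower. Median-ratio scaling, which removes the general level of each library, moved it to -0.01 and the split to 763 higher and 799 lower, so a log2 difference near -0.24 is that of the middle gene. The shift rested on HFD replicate 1: without it the median was -0.003, with 724 higher and 732 lower, and without HFD replicate 3 it was -0.40.

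**Figure D1:**
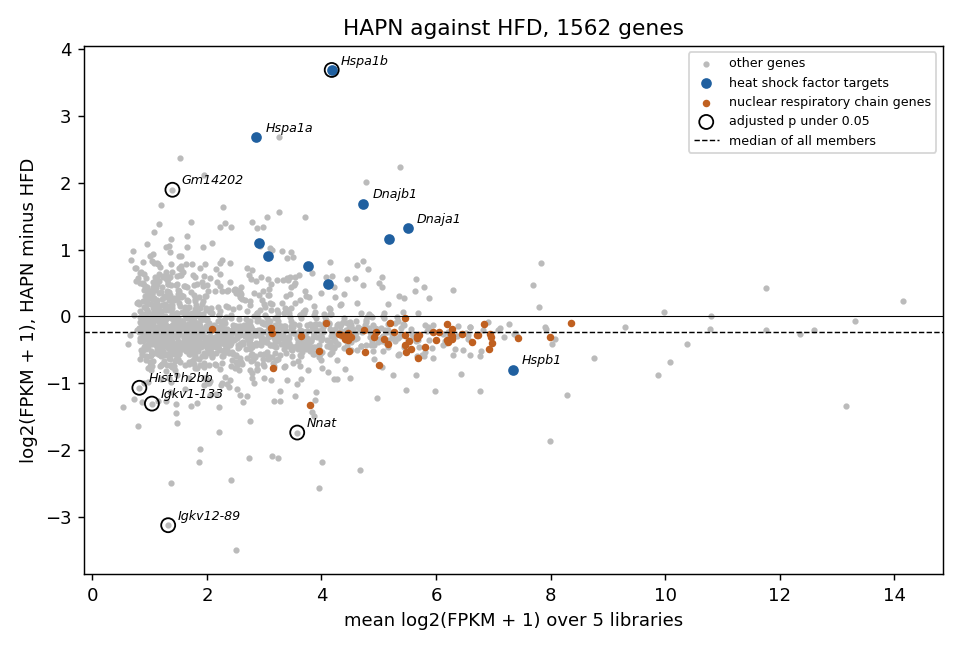
Log2 difference of HAPN minus HFD (vertical, log2(FPKM + 1)) against the mean level over the 5 libraries (horizontal) for each of the 1562 members. Circled genes passed the adjusted p of 0.05; the dashed line is the median of -0.24, and 9 of the 10 heat shock factor targets lie above it.

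Hspa1b encodes an inducible Hsp70 chaperone, and its near-copy Hspa1a lies beside it on chromosome 17. In GRCm38 Hspa1b spans chr17:34956436-34959238 and Hspa1a chr17:34969190-34972156, both on the minus strand. The RefSeq promoters of both (GRCm38.p6, 250 bases before to 50 after the start) are shown because they place the gene with the highest difference beside the shared control sequence. Capitals mark a heat shock element of a pair of inverted units, searched on both strands as GAANNTTC or TTCNNGAA.
Hspa1b, chr17:34959189-34959488, minus strand: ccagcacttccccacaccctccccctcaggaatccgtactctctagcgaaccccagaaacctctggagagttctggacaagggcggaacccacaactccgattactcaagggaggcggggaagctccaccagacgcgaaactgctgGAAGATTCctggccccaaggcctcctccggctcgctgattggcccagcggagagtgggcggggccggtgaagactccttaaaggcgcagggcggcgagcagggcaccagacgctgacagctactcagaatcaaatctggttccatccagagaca
Hspa1a, chr17:34972107-34972406, minus strand: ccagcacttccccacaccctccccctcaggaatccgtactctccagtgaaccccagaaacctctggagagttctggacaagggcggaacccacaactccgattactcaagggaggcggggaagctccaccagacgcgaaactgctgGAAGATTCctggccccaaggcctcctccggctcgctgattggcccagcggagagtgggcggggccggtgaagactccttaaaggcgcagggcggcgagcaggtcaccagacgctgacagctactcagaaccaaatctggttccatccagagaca
These promoters were identical at 296 of 300 bases and carried the element at the same place, -104 to -97 from the start. Hspa1a overlaps the gene model Gm20481 on the other strand. Reads that fit both copies could have been split between them by the counting, so the share of each copy is uncertain.

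Hsph1, a nucleotide exchange factor, and Chordc1, a cochaperone of Hsp90, are shown because theirs were the only promoters among the heat shock members with a run of 3 alternating units (GAANNTTCNNGAA or TTCNNGAANNTTC, each of which contains a pair). Capitals mark pairs and longer runs. In Hsph1 the run lay after the start, at 36 to 48 from it. Another RefSeq window of Hsph1, not printed, places it at 15 to 27. In Chordc1 the stretch with the runs lay across the start, at -4 to 18.
Hsph1, chr5:149636287-149636586, minus strand: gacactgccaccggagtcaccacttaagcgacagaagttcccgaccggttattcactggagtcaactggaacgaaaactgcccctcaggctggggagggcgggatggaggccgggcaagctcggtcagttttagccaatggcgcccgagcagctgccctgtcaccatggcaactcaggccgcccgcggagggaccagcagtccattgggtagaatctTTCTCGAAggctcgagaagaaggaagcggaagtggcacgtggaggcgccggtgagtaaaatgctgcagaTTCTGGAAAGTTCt
Chordc1, chr9:18292017-18292316, plus strand: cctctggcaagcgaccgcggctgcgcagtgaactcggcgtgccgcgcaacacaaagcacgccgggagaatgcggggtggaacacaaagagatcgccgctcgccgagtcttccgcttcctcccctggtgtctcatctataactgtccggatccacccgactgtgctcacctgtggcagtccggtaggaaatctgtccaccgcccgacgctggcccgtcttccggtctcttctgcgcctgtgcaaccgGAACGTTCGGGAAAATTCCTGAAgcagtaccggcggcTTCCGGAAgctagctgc
A pair of units was found in the promoters of 7 of the 10 heat shock members (70%), against 158 of the 1010 members with a RefSeq promoter (15.6%), 17.0% of all 27025 genes in the promoter table and 15.1% of its 32851 promoters. A run of 3 was found in 2 of 10, against 0.66% of all genes and 0.60% of all promoters. Windows of Dnajb1, Dedd2 and Ahsa2 held neither. A gene counted when any of its windows held a match, and Dnaja1 and Dnaja4 also have windows without one. The list was chosen as heat shock factor targets, which favours a high share, so these shares are a description and no test. A match is a run of letters, not a measured site.

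Hspa1b stood at 3.36 and 2.49 FPKM in HFD and at 91.0, 64.2 and 20.3 FPKM in HAPN. The groups did not overlap, and the lowest HAPN library was above all 8 libraries of the other groups, the next highest being WT at 8.29 FPKM. The mean rose 19.99-fold, from 2.93 ± 0.620 (SD, n = 2) to 58.5 ± 35.7 FPKM (n = 3), with a log2 difference of 3.69 (SE 0.511, limma adjusted p = 0.0213). Leaving out any 1 library other than HAPN replicate 3 ended the call. The limma adjusted p was 0.122 without HFD replicate 1, 0.1002 without HFD replicate 3, 0.0712 without HAPN replicate 1 and 0.105 without HAPN replicate 2, and 2.52e-04 without HAPN replicate 3. Over these the log2 difference lay between 3.26 and 4.31.

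Hspa1a followed the same order of libraries, at 1.72 and 1.09 FPKM in HFD and 25.6, 18.7 and 5.82 FPKM in HAPN. Its log2 difference of 2.68 (SE 0.472) just missed the threshold (limma adjusted p = 0.0573), and it passed after median-ratio scaling (0.0370) and without HAPN replicate 3 (3.85e-04).

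Dnajb1, the J-domain partner of the inducible chaperone, was 10.7 and 13.8 FPKM in HFD and 69.8, 45.3 and 22.4 FPKM in HAPN (log2 1.69, limma adjusted p = 0.201). Dnaja1, a J-domain cochaperone of the same type, was 20.8 and 30.3 FPKM in HFD and 76.6, 75.0 and 46.5 FPKM in HAPN (1.32, 0.201). Hsph1, whose promoter is printed above, was 20.6 and 21.9 FPKM in HFD and 75.6, 52.0 and 29.4 FPKM in HAPN (1.16, 0.453). None of these passed, though all 3 HAPN libraries of each were above all 8 others, as they were for Hspa1b and Hspa1a. Dnajb1 passed without HAPN replicate 3 (0.0356).

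Ahsa2, an activator of the Hsp90 ATPase, was 3.995 and 3.54 FPKM in HFD and 11.3, 10.9 and 6.16 FPKM in HAPN (log2 1.09). Dedd2, a death effector domain gene, was 4.63 and 4.92 FPKM in HFD and 13.3, 9.17 and 7.66 FPKM in HAPN (0.90). Chordc1 was 8.97 FPKM in both HFD libraries and 18.9, 18.3 and 11.3 FPKM in HAPN (0.75). In these genes too the groups did not overlap, and Chordc1 overlapped with WT alone, at 11.3 FPKM in WT replicate 3. Dnaja4, another J-domain cochaperone, was 18.4 and 9.35 FPKM in HFD against 26.6, 20.6 and 12.1 FPKM in HAPN (0.49), and its groups overlapped.

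Hspb1, a small heat shock protein that holds unfolded proteins without ATP, went the other way. It was 246 and 205 FPKM in HFD and 160, 146 and 91.3 FPKM in HAPN (log2 -0.80, limma adjusted p = 0.515). Its promoter holds the pair of units 2 times, at -117 to -110 and -97 to -90. The HAPN libraries lay within the range of WT (83.9 to 197 FPKM).

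Of the list of 31 heat shock factor targets, 10 were among the deposited symbols, and how the rest behaved is unknown. All 10 were members, at 1 FPKM or more in all 5 libraries: 9 stood higher and 1 lower, and 1 was called. Groups did not overlap, with HAPN higher, in 8 (80.0%), beside 6.98% of all members. The median log2 difference of the 10 was 1.13, beside -0.24 over all members, and 1.38 after scaling, beside -0.01. Leaving out any 1 library kept 9 higher and 1 lower, with a median of 0.90 to 1.43. The list mean of the HFD libraries was -0.73 and -0.83 relative to the mean of the 5 libraries. Single genes differed between them in both directions, such as Hspa1a (1.72 and 1.09 FPKM) and Dnaja1 (20.8 and 30.3 FPKM). Within HAPN the order was constant: in all 9 genes that stood higher, replicate 1 was highest and replicate 3 lowest. In 7 of the 9, all 3 HAPN libraries were above the 8 others, which was so for 36 of 1562 members (2.3%).

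**Figure D2:**
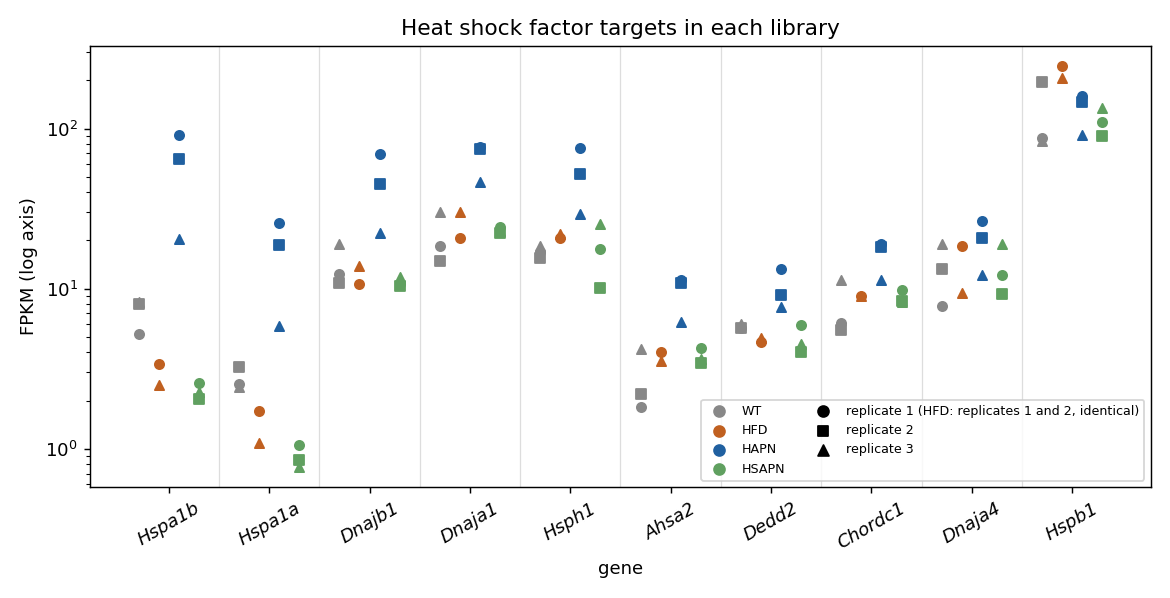
FPKM of the 10 heat shock factor targets (log axis) in the 11 distinct libraries, coloured by group, with a marker shape for the replicate. In Hspa1b and Hspa1a the HAPN libraries sit between 5.82 and 91.0 FPKM, above every other library of the same gene, and in Hspb1 they sit below both HFD libraries.

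The other called gene that stood higher was a pseudogene, and it passed the filter through HAPN alone. Gm14202, a processed pseudogene at chr2:158406508-158406818 on the minus strand, went from 0.202 and 0.193 FPKM in HFD to 2.77, 3.43 and 4.31 FPKM in HAPN, a log2 difference of 1.90 (SE 0.211, limma adjusted p = 0.00990). That is 1 read in each HFD library and 14, 19 and 21 reads in HAPN. Here HAPN was above every other library and HFD below every other library, with WT at 0.719 to 0.946 and HSAPN at 0.968 to 1.83 FPKM. A pseudogene can take reads from its parent gene. Its limma adjusted p was 0.0695 without HFD replicate 1, 0.0758 without HFD replicate 3 and 0.0582 without HAPN replicate 2.

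In the 4 called genes that stood lower, of which 3 passed the filter through HFD alone, it was HFD that stood apart from the rest of the series. Both HFD libraries were above all 9 other libraries in each, and in none of the 4 were all 3 HAPN libraries below every other library. Both HFD libraries were above all others in 39 of 1562 members (2.5%) and below all others in 4 (0.256%). Of those 39, 6 passed the filter through HFD alone.

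Nnat encodes neuronatin, an imprinted proteolipid of the endoplasmic reticulum found in nerve and fat cells, and lies at chr2:157560078-157562522 overlapping Blcap, which is read from the other strand, so reads of the pair may not be told apart. It fell from 31.0 and 17.9 FPKM in HFD to 6.03, 7.09 and 6.03 FPKM in HAPN, a log2 difference of -1.74 (SE 0.282, limma adjusted p = 0.0415). WT stood at 5.50 to 9.81 FPKM and HSAPN at 9.04 to 12.0 FPKM. The call ended when any 1 of the 5 libraries was left out (limma adjusted p from 0.0758 to 0.324, the highest without HFD replicate 1).

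Hist1h2bb, a replication-linked histone H2B gene that passed the filter through HFD alone, went from 1.86 and 1.66 FPKM in HFD to 0.485, 0.221 and 0.251 FPKM in HAPN (log2 -1.07, limma adjusted p = 0.0415), or from 15 and 14 reads to 4, 2 and 2. Its call ended without any 1 HAPN replicate (0.0843 to 0.159) and after scaling (0.160), and without either HFD library it was below the filter. Histone genes are near-copies of each other, so their reads are uncertain. The histone list, which does not hold Hist1h2bb, has 4 members, all lower (median -0.69) and 0 called.

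The antibody light chain segments Igkv1-133 and Igkv12-89 stood lower in HAPN, and both passed the filter through HFD alone. Igkv1-133 had 14 and 17 reads in HFD and 3, 2 and 3 in HAPN (2.35 and 2.73 against 0.494, 0.3002 and 0.511 FPKM; log2 -1.30, limma adjusted p = 0.0213). Igkv12-89 had 59 and 34 reads in HFD and 0, 1 and 0 in HAPN (log2 -3.13, 0.0213), a difference whose size depends on the pseudocount of 1 that the fit adds. Each B cell clone carries its own choice of such segments. Over the table they were spread widely in both directions. Of 43 variable segments 21 stood higher and 22 lower (median -0.02), and a segment's highest library was 31.4 times its lowest value above 0 in the median, against 2.32 over all members. Calls of both ended without HAPN replicate 1 (0.0843 and 0.0923) or 2 (0.105 for both), that of Igkv12-89 also without HAPN replicate 3 (0.0624), and that of Igkv1-133 also after scaling (0.0835). Without either HFD library both segments were below the filter. Segments of 1 family share sequence, so these counts are uncertain.

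The 15 named genes of smallest p that stood lower, of which Nnat alone passed the threshold, included some in which HAPN was the group apart. Lypla1, a thioesterase that removes palmitate from proteins, was 6.08 and 4.998 FPKM in HFD and 2.76, 2.80 and 2.81 FPKM in HAPN, a log2 difference of -0.78 (SE 0.164, limma adjusted p = 0.157). WT and HSAPN ranged from 4.26 to 5.62 FPKM, so all 3 HAPN libraries were below every other library. The same held for Tmem14a, a small membrane protein (6.33 and 7.21 against 4.84, 2.95 and 3.11 FPKM), Zfp113 (2.13 and 2.25 against 1.22, 1.33 and 1.25 FPKM) and Ndufb4. All 3 HAPN libraries were below all others in 36 of 1562 members (2.3%), and in 4 of these 15 named genes. Since the 15 were picked among genes without overlap, a higher share than over all members was built in. Plpp7 and Shisa2, also among the 15, passed the filter through HFD alone.

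In 8 of the 15, Nnat among them, it was HFD that lay above all others, a pattern that the choice of genes also favours. They also included Mmd, a membrane protein linked to macrophage differentiation (30.7 and 23.2 against 12.0, 15.6 and 12.98 FPKM), and Tubb4a, a beta-tubulin of nerve and glia (10.1 and 9.34 against 3.62, 4.84 and 4.66 FPKM). Arxes2, a gene of fat cell differentiation, was 17.2 and 8.20 FPKM in HFD against 2.45, 4.58 and 3.29 FPKM in HAPN, and Nnmt, which methylates nicotinamide, 10.97 and 6.91 against 2.50, 2.71 and 5.14 FPKM. For these 4 genes the limma adjusted p ran from 0.201 to 0.266.

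Genes of mitochondria and stress signalling were among the rest of the 15. Crls1, which makes the inner membrane lipid cardiolipin, was 15.5 and 15.1 FPKM in HFD and 9.77, 11.6 and 10.4 FPKM in HAPN (log2 -0.49). Fahd1, a mitochondrial hydrolase, was 12.8 and 13.8 against 8.54, 8.10 and 8.93 FPKM (-0.59), and in both genes HFD was above all other libraries. Atf5, a transcription factor of the mitochondrial stress response, was 38.3 and 51.4 against 21.5, 27.3 and 29.8 FPKM (-0.75). After scaling the differences were -0.23, -0.33 and -0.48.

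Genes that stood higher in HAPN outside the chaperones, none past the threshold, included Naa16, a subunit of an N-terminal acetyltransferase (1.31 and 1.20 against 2.60, 2.75 and 2.08 FPKM, log2 0.62), Sfn, an epithelial 14-3-3 protein (16.6 and 23.7 against 37.8, 33.6 and 28.9 FPKM, 0.71), and Banp, a nuclear matrix-binding protein (3.99 and 4.32 against 6.16, 8.26 and 7.89 FPKM, 0.70). All 3 HAPN libraries of each were above all 8 others. Kpna2, an importin that carries proteins into the nucleus (17.5 and 18.1 against 29.9, 29.7 and 22.3 FPKM, 0.58), and Lag3, an inhibitory receptor of activated T cells (1.13 and 1.17 against 2.02, 2.48 and 3.51 FPKM, 0.75), did not overlap between HFD and HAPN. In 11 of the 15 named genes that stood higher HAPN was above all others, and 7 of the 15 are on the heat shock list. These 15 too were picked among genes without overlap, which favours such a count. BC051142, also among them, passed the filter through HAPN alone.

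**Figure D3:**
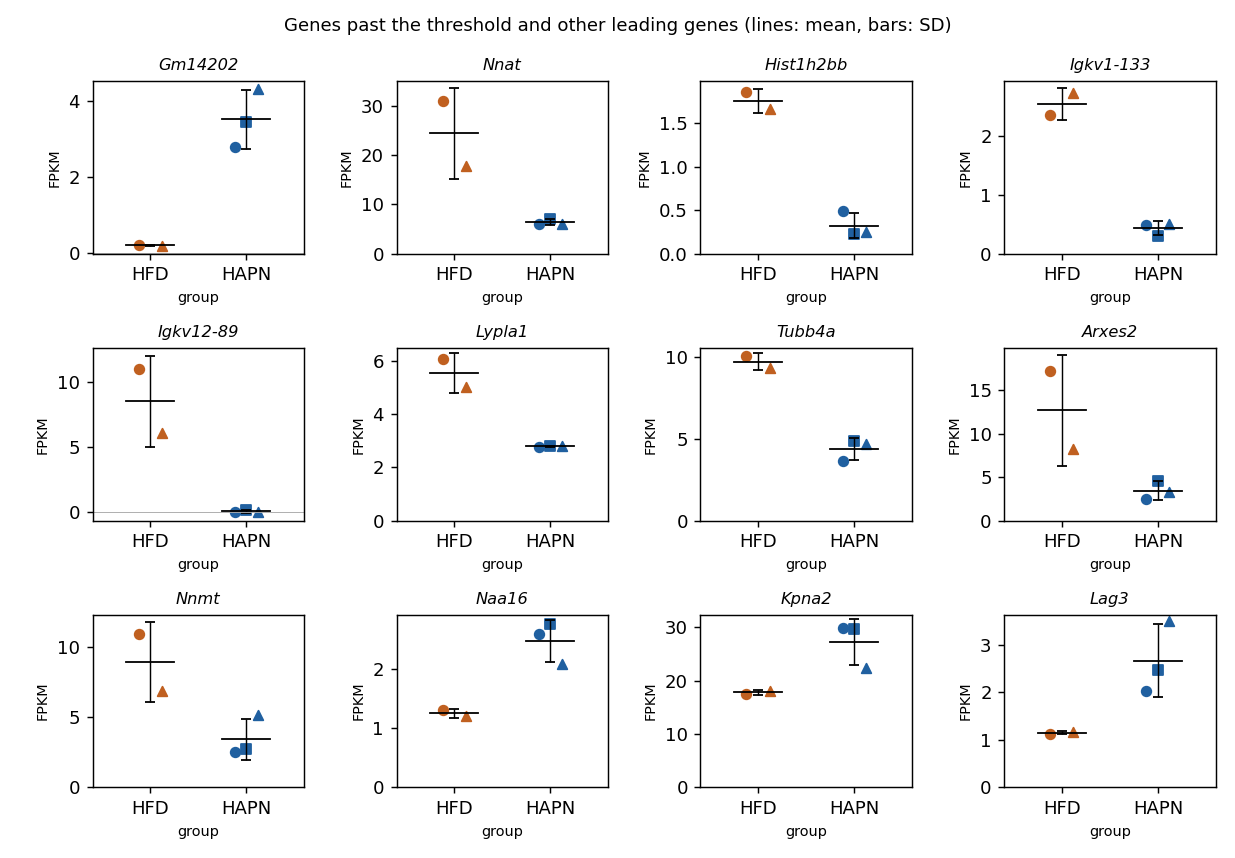
FPKM in each HFD and HAPN library (points, shaped by replicate) for 5 of the genes past the threshold and 7 others with small p, with the group mean (line) and SD (bar) of 2 and 3 libraries. In each panel the 2 groups do not overlap, and for Lypla1 the 3 HAPN libraries lie between 2.76 and 2.81 FPKM.

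Nuclear genes of the respiratory chain stood lower together, with a median log2 of -0.30 beside -0.24 over all members. All 57 members were lower and 0 were called. Groups did not overlap in 27 (47.4%), beside 20.2% of all members. The median was -0.14 without HFD replicate 1 (13 higher and 44 lower, beside -0.003 over all members) and -0.44 without HFD replicate 3. After scaling it was -0.03, with 21 higher and 36 lower, beside -0.01. Ndufb4, a subunit of complex I, was 41.8 and 43.2 FPKM in HFD and 25.2, 25.3 and 25.8 FPKM in HAPN (log2 -0.72, and -0.45 after scaling), the lowest of all 11 libraries in HAPN and the highest in HFD. Uqcrb of complex III was 62.0 and 70.2 against 49.2, 35.9 and 43.0 FPKM. Of the 14 genes of the mitochondrial genome, 3 were higher and 11 lower (median -0.23), and after scaling 9 were higher and 5 lower (0.05).

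Genes of fat handling also stood lower, with HFD replicate 1 the highest library in 18 of 20 lipid droplet genes. Of 22 fatty acid oxidation genes 19 stood lower (median -0.34), of 20 lipid droplet and lipolysis genes 18 (-0.48), and of 9 vascular lipid uptake genes 8 (-0.44), with 0 called in each. After scaling 14 (-0.10), 16 (-0.22) and 6 (-0.17) were lower. Angptl4, the secreted inhibitor of lipoprotein lipase, was 36.3 and 28.3 FPKM in HFD and 13.6, 16.7 and 19.8 FPKM in HAPN (log2 -0.92), without overlap. Lpl itself followed the fat cell markers, at 69.6 and 7.397 against 10.8, 25.3 and 7.35 FPKM.

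All 16 fat cell genes stood lower (median -1.24, and -0.97 with 15 lower after scaling; 1 called, Nnat), and in 15 of them HFD replicate 1 was the highest library. Adiponectin, Adipoq, was 92.6 and 0.174 FPKM in HFD and 3.39, 15.8 and 0.0923 FPKM in HAPN. Without HFD replicate 1 the list turned to a median of 0.91, with 9 higher and 5 lower of 14. Its receptor-like binding protein Cdh13, T-cadherin, was 5.43 and 1.73 against 1.89, 2.94 and 1.91 FPKM (log2 -0.38, and 0.24 without HFD replicate 1).

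HFD replicate 1 was also the highest library in 14 of 14 fibroblast, 19 of 21 platelet and 7 of 8 nerve-linked genes. All 14 fibroblast genes stood lower (median -0.55, and -0.28 with 12 lower after scaling), each with HFD replicate 1 highest, and without it 7 were higher and 7 lower (-0.03). Dcn, the matrix proteoglycan decorin, was 76.4 and 34.0 against 35.7, 31.5 and 35.5 FPKM. All 21 platelet genes were lower (-0.53, and -0.27 with 18 lower after scaling), with 12 higher and 8 lower (0.19) without HFD replicate 1, and a median of -1.28 without HFD replicate 3. Pf4, the chemokine of platelet granules, was 116 and 43.9 against 50.2, 37.4 and 30.1 FPKM.

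The 8 Schwann cell and neural crest genes were all lower as deposited (median -0.76) and after scaling (-0.53), with 1 called, Nnat. Groups did not overlap in 4 (50.0%), beside 20.2% of all members, and only 3 of the 8 reached 1 FPKM in all 5 libraries. Without HFD replicate 1, 3 were higher and 4 lower (-0.46). Stmn2, a microtubule regulator of neurons, was 11.4 and 12.8 against 4.96, 10.2 and 9.53 FPKM. Tubb3, the neuronal beta-tubulin, was 13.6 and 0.515 against 0.330, 1.62 and 0.990 FPKM, so that gene was high in 1 library alone. Beside these lists, the fat cell marker sum of 1092 FPKM in HFD replicate 1 and of 3.07 to 225 FPKM in the other 4 libraries moved in the same direction; its part in the result was not tested.

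Contractile genes overlapped between the groups in 14 of 15. The share without overlap and with HAPN lower was 6.67%, beside 20.2% of all members. In all, 3 were higher and 12 lower (median -0.21, and 0.06 with 8 higher and 7 lower after scaling), with 14 highest in HFD replicate 1. Acta2, smooth muscle actin, was 466 and 146 against 312, 235 and 165 FPKM (log2 -0.18, and 0.10 after scaling, 0.65 without HFD replicate 1 and 0.05 without HAPN replicate 3). Myh11, smooth muscle myosin, was 77.3 and 15.5 against 58.7, 49.5 and 28.3 FPKM (0.31, and -0.81 without HFD replicate 3).

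Interferon and lymphocyte genes stood higher through HAPN replicate 3. Of 11 interferon response genes 9 were higher (median 0.59), and of 9 T cell and NK cell genes all 9 (0.55), with 0 called. The 4 T cell markers of the cell type check were not among the gene symbols used here. HAPN replicate 3 was the highest of the 5 libraries in 10 of 11 and in 9 of 9, and HAPN replicate 1 the lowest in 10 of 11 and 8 of 9. Without HAPN replicate 3 the medians were -0.17 and -0.03.

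Gbp4, an interferon-induced GTPase, was 6.47 and 6.24 FPKM in HFD and 4.67, 8.19 and 46.6 FPKM in HAPN. Gzmb, the protease of cytotoxic granules, was 2.01 and 1.38 against 1.16, 3.64 and 30.5 FPKM. Cd4, the coreceptor of helper T cells, was 1.12 and 1.09 against 1.36, 2.45 and 4.17 FPKM (log2 0.72) and alone of the T and NK list did not overlap. So the HAPN library lowest in chaperone transcripts was the highest in these genes, and the library highest in chaperones the lowest.

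**Figure D4:**
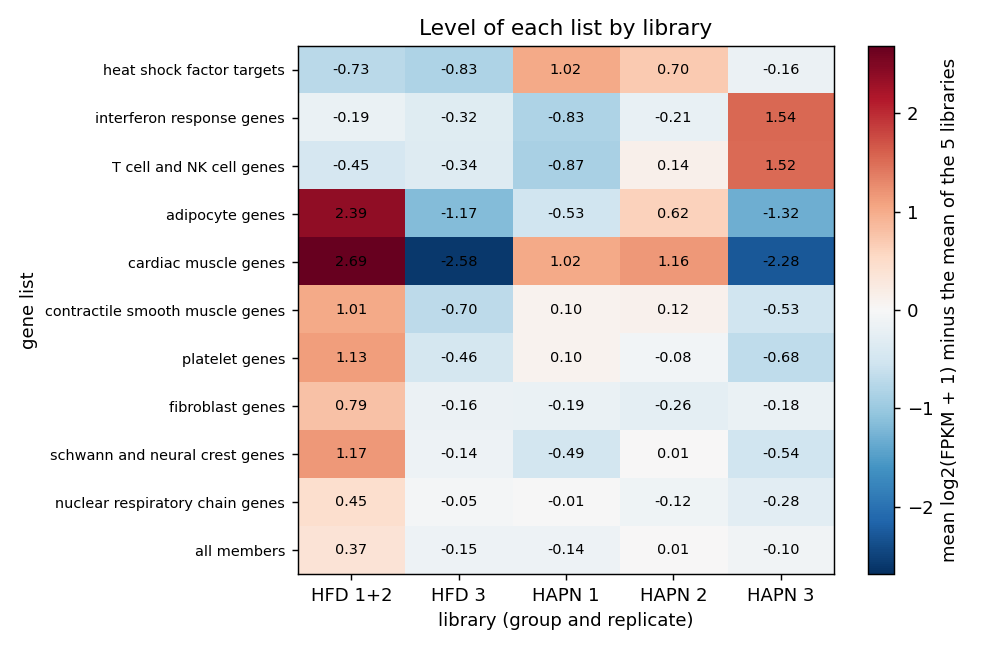
Mean log2(FPKM + 1) of each gene list in each library, minus the mean of the 5 libraries (colour and number). Heat shock genes are at 1.02, 0.70 and -0.16 in HAPN against -0.73 and -0.83 in HFD, interferon genes peak in HAPN replicate 3 (1.54), and fat cell genes in HFD replicate 1 (2.39).

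Immediate early genes, which many stimuli induce within minutes, were mixed. Of 11, 3 were higher and 8 lower (median -0.18), with 0 called, and after scaling the split turned to 7 higher and 4 lower (0.04). Fos, a transcription factor, was 17.7 and 17.3 against 11.3, 5.37 and 10.5 FPKM (log2 -0.94), and Cyr61, a matrix-linked signal, 47.3 and 61.8 against 31.4, 23.2 and 33.3 FPKM (-0.88). Atf3, a stress-induced transcription factor, was 5.20 and 2.88 against 17.6, 5.94 and 7.16 FPKM (1.06), without overlap. Of 12 cell cycle genes 10 were higher (median 0.25, and 0.46 with 11 higher after scaling), with 0 called. Their mean log2(FPKM + 1) was 2.06 and 1.68 in HFD and 1.49, 2.03 and 2.655 in HAPN. Only HAPN replicate 3 was above both HFD libraries, and HAPN replicate 1 was the lowest. Of 38 solute carrier genes 31 were lower (-0.21), with 0 called, and after scaling 19 were higher and 19 lower (-0.002). The 4 clock genes split evenly as deposited (-0.05) and into 3 higher and 1 lower after scaling (0.18).

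**Figure D5:**
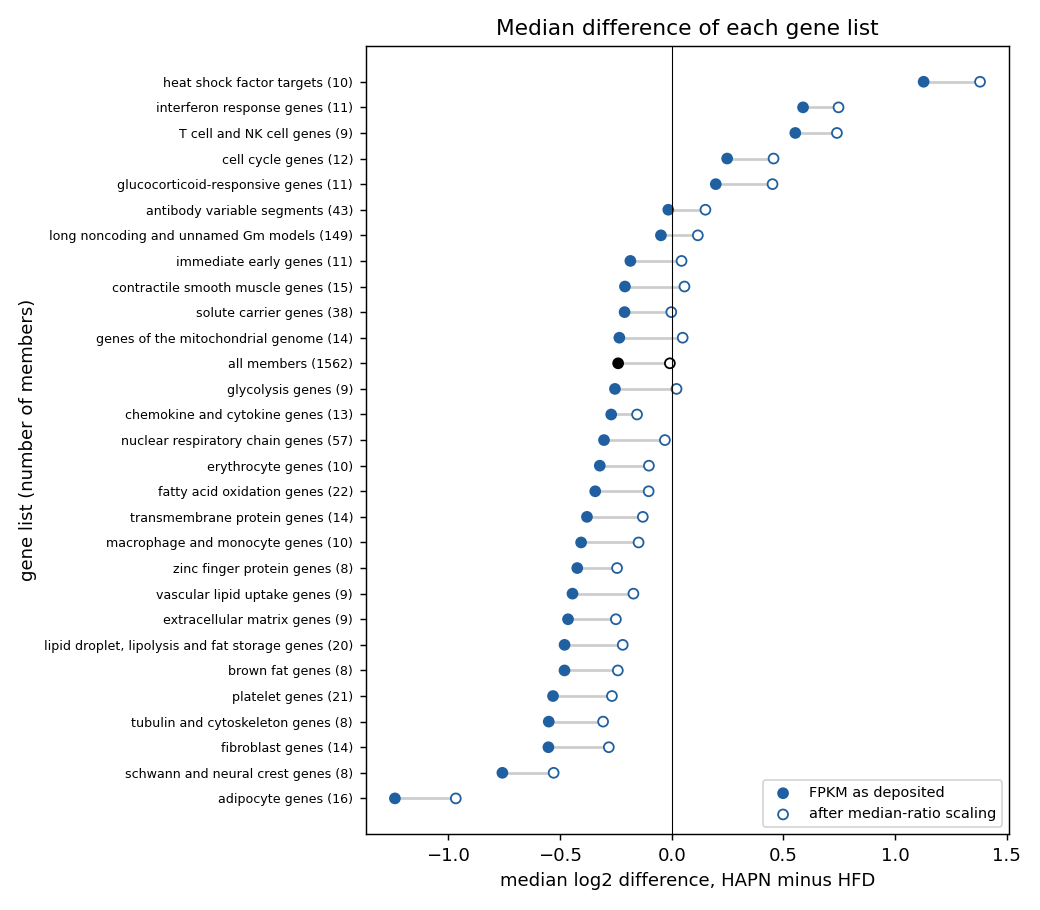
Median log2 difference of each gene list with at least 8 members, as deposited (filled) and after median-ratio scaling (open), with the number of members in brackets. Heat shock factor targets lie highest at 1.13 and fat cell genes lowest at -1.24, and scaling moves each list to the right.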

How the data were processed

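TRIzol was used to isolate RNA from aorta, and a directional NEB kit to prepare the libraries, per the labels' protocols. Per the submitters' processing notes, the build was GRCm38 and the tools were DESeq 1.8.3 and featureCounts 1.5.0-p3, without their roles. The aligner, annotation and strandedness of counting were not given in the sources used here. Values are FPKM as deposited by the authors, 1 per gene symbol. Dlg2, listed 2 times, and 4 symbols turned into dates were left out, which leaves 3528 symbols, of which 3407 matched a GENCODE M21 gene. Values multiplied by exonic length and by a depth fitted for each library gave whole reads (tolerance 0.1, up to 20 reads) in 96.1 to 97.3% of low values. The depth was picked to make this share high, so the share is no independent check of it. The recovery of reads does not tell FPKM from TPM, which would change the read totals. Depth sets 1 read per kilobase at 0.0561 to 0.0641 FPKM.

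Members were tested on log2(FPKM + 1) with limma-trend (limma 3.58.1, R 4.3.3) in 1 fit of 4 group means over 11 distinct libraries, and p-values were adjusted by Benjamini-Hochberg over all 1562 members at 0.05. Folds are on the scale of FPKM means, and log2 differences, which carry the pseudocount of 1, understate the change of low genes. Lists are described by counts and medians, without a test. Python 3.11.15 with NumPy 2.4.6 and pandas 2.3.3 made the tables, and matplotlib 3.10.9 the figures. On simulated data with 1562 genes and 200 changes, the fit recovered 64.2% of log2 changes of 1 and 100% of 2 and 3, and called 0.881% of unchanged genes. The changes were put only into genes with a mean log2(FPKM + 1) of 3 or more, with independent noise in each library. No simulated library stood apart as HFD replicate 1 did, so these shares do not carry over to the measured libraries.

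Named were every called gene, the 15 genes of smallest p in each direction without overlap whose log2(FPKM + 1) averaged 1 or more (no unnamed models, pseudogenes or receptor segments), up to 4 genes of smallest p in each list, and Adipoq, Cdh13, Acta2, Myh11 and Hspa1a. Not all of them are described. Chordc1 and Hspb1 were chosen after their values were seen. The members and lists were chosen with earlier results of these data known. Alternatives were other filters, pseudocounts, scaling, libraries, weights and blocks.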

Additional observations from a re-analysis of the deposited data

How the results depend on the processing

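The count of called genes, 6, depended on the setting. It was 5 with a filter of 1 FPKM in 1 library or with median-ratio scaling, 1 (Hspa1b) with 1 FPKM in all 5 libraries, 3 with 1 FPKM in 3 of 11 libraries, 2 (Gm14202 and Hspa1b) with a pseudocount of 0.1 or array weights, and 18 with the identical HFD libraries counted as 2. With HFD and HAPN fitted alone and with limma-voom on recovered reads it was 0, with 92 and 133 genes at an unadjusted p under 0.05. Leaving out 1 library gave 0 to 6: 0 without HFD replicate 3 or HAPN replicate 2 (316 and 95 genes at an unadjusted p under 0.05), 1 without HFD replicate 1 or HAPN replicate 1, and 6 without HAPN replicate 3. The cause was not tested.

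With the replicate number as a block the count was 0 (111 genes at an unadjusted p under 0.05). Deviations of same-numbered libraries correlated at 0.09 for number 1 and 0.51 for number 3 over 1562 genes, with the identical HFD library as number 1. That library is also titled number 2, where the correlation was 0.58. The deviations of the HFD libraries from their mean are mirror images, so these correlations all rest on 1 difference and are not separate readings of pairing. Since only 2 numbers can be shared at a time, the numbers are not taken to pair the samples. With it as number 2, an alternative chosen after seeing the data, the block gave 4 calls, without Hspa1b (limma adjusted p = 0.0547) or Nnat (0.130).

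The respiratory chain median was -0.030 after scaling. With 1 library left out, list medians ranged from -2.63 to 0.91 for fat cell genes, -0.85 to -0.032 for fibroblast genes and -1.28 to 0.19 for platelet genes. Of 53 genes named, 44 kept their direction under all alternatives run. The others changed sign in some: Acta2 (0.10 after scaling, -1.02 to 0.65 with 1 library left out), Myh11 (-0.067 with the identical libraries counted as 2, -0.81 to 1.43 with 1 left out), Bpifa1 (0.14 in the fit reported, -1.51 with the identical libraries counted as 2, -0.69 with the block, -4.80 to 5.08 with 1 left out), and, with 1 left out, Adipoq (-4.44 to 1.88), Cdh13 (-0.9998 to 0.24), Dcn (-1.14 to 0.0085), Gbp4 (-0.026 to 1.51), Gm23935 (-4.13 to 1.44) and Lpl (-2.36 to 0.71). Only 2 HFD libraries, 1 of them high in fat and airway transcripts, limit every value here. Genes of few reads, such as the antibody segments, are limited by depth.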

Other observations

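The predicted microRNA gene Gm23935, chosen after its values were seen, was at 2330 and 110585 FPKM in HFD and at 11635, 2299 and 9388 FPKM in HAPN, so HFD replicate 3 was the highest library by far. Arg1, a marker of alternatively activated macrophages, was 0.677 and 0.378 FPKM in HFD and 1.38, 2.19 and 1.43 FPKM in HAPN, without overlap (log2 0.80). It passed the filter through HAPN alone, so it had to stand higher there. Slc7a10, an amino acid transporter of white fat cells, was 18.6 and 10.8 FPKM in HFD and 3.33, 8.08 and 5.41 FPKM in HAPN (log2 -1.27), also without overlap. Retnla, chosen after its values were seen, was 130 and 200.1 FPKM in HFD and 460.4, 206 and 238 FPKM in HAPN.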
